A study of Mus musculus with 12 samples.

Results

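Inguinal adipose tissue (IAT), the main subcutaneous fat depot of the mouse, was separated with collagenase I into adipocytes and stromal vascular cells (SVCs), and the transcripts of both fractions were compared. The adipocytes are the lipid-filled cells of the depot, and the SVCs are the mixed remainder, with progenitors, fibroblasts, vessel cells and blood and immune cells. The comparison used 6 of the 12 libraries of the study, chosen by their labels: 3 of IAT adipocytes and 3 of IAT SVCs. The other 6 hold the same fractions of epididymal adipose tissue (EAT), a visceral depot, and were used only to ask where the inguinal division differed. All mice were male C57BL/6J animals aged 18 weeks on a normal chow diet, and the labels name no transgene or treatment. Whether a library came from 1 mouse or from pooled mice was not given in the sources used here, so the p-values speak of the spread among these libraries, which may be technical. Of 24890 listed features, 12496 reached 1 FPKM (fragments mapped per kilobase of transcript, scaled to a fixed number of mapped fragments) in at least 3 of the 6 libraries and were tested.

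White adipocytes take up fatty acids and glucose, store them as triglyceride in 1 large lipid droplet, and release fatty acids when catecholamines reach their adrenergic receptors. They also secrete hormones such as leptin and adiponectin. The cells around them supply the collagen scaffold, the capillaries, the nerve sheaths, new adipocytes from progenitors, and immune surveillance. Inguinal fat in the mouse surrounds a lymph node and lies under the skin and next to muscle.

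Adipocyte libraries held 10726 to 10803 features at 1 FPKM or more and SVC libraries 12161 to 12222, with an estimated 14.3 M to 17.8 M and 14.8 M to 19.0 M gene fragments behind them. Libraries of the same fraction correlated at r = 0.9932 to 0.9962 across genes, and libraries of different fractions at r = 0.6852 to 0.7195. Genes are not independent replicates, so these correlations describe the libraries. Values below are FPKM, either of each library in the order of replicates 1, 2 and 3, or as means ± SD of 3 libraries. A difference is the mean of log2(FPKM + 1) in adipocytes minus that in SVCs, ± its standard error, with an adjusted p from limma (Benjamini-Hochberg), called under 0.05. In bulk libraries fewer cells of a type and less RNA per cell cannot be told apart.

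Most of the transcriptome differed between the fractions. Of the tested features 87.7% were called, with 4013 (32.1%) higher and 6941 (55.5%) lower in adipocytes, and in 88.9% the values of the 2 fractions did not overlap (32.6% higher and 56.3% lower in adipocytes). The split between directions depended on the scale. The median difference of all features was -0.33 with FPKM as deposited, and median-of-ratios scaling moved it by 0.40 to 0.07, giving 5727 features higher (45.8%) and 5154 lower (41.2%). Calls of at least 2-fold did not move in this way: 5292 of 5294 (1741 higher, or 13.9%, and 3553 lower, or 28.4%) had the same call under both scales. More than 10-fold differences were found in 188 features higher in adipocytes and in 391 higher in SVCs. Counts of list members below are to be read against these shares. A gene under 1 FPKM in every library of a fraction passed the filter only through the other fraction. The filter then fixed its direction, and such genes add nothing to a count.

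The largest differences toward adipocytes belonged to hormones, secreted proteins and lipid enzymes. Cfd, which encodes adipsin (complement factor D), stood at 19119, 21635 and 18729.9 FPKM in the adipocyte libraries and 110, 118 and 95.5 FPKM in the SVC libraries. Adipoq, the gene of the hormone adiponectin, stood at 3307, 3709.8 and 3366 FPKM in the adipocyte libraries and 23, 21.6 and 20.4 FPKM in the SVC libraries. Every adipocyte library lay far above every SVC library in both genes, by 7.51 and 7.25 in the means of the log2 scale (adjusted p = 5.4e-12 and 2.5e-12). Where a pair of values is given below, adipocytes come first. Hp (haptoglobin, 3281 against 22.9 FPKM) and Retn (resistin, 3043 against 24.3 FPKM) are also secreted by fat. Ces1d, a carboxylesterase of lipid droplets (817 against 5.93 FPKM), Cyp2e1, a cytochrome P450 (762 against 5.59 FPKM), and Nnat, neuronatin (1674 against 17 FPKM), completed the 10 largest with Adrb3, Plin1 and Pck1, described below.

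The largest differences toward SVCs joined genes of lymphocytes, macrophages, complement and progenitor stroma. Ccr7, a receptor that guides lymphocytes and dendritic cells into lymph nodes, stood at 1.27, 1.45 and 1.22 FPKM in the adipocyte libraries and 79.6, 119 and 87.7 FPKM in the SVC libraries. Fn1, which encodes fibronectin, stood at 5.65, 4.52 and 5.81 FPKM in the adipocyte libraries and 252, 219 and 267 FPKM in the SVC libraries. Neither gene overlapped between fractions, and the SVC libraries spread more in Ccr7, where replicate 2 was highest, than in Fn1. Pi16, which marks the DPP4+ progenitors of the interstitium, was at 7.5 ± 1.25 in adipocytes against 318 ± 30.7 FPKM in SVCs (difference -5.24 ± 0.11 in log2, adjusted p = 3.7e-11). Retnla, a secreted product of alternatively activated macrophages, was at 79 ± 14 in adipocytes against 2797 ± 183 FPKM in SVCs. C7, a late complement component, was at 2.83 ± 0.435 in adipocytes against 127 ± 15.9 FPKM in SVCs. The 10 largest also held Sfrp2, a secreted Wnt modulator of fibroblasts (1.67 against 85.8 FPKM), and Vps37b, a subunit of the ESCRT-I sorting complex (5.42 against 256 FPKM). The others were lymphocyte genes: Cd69, an early activation marker (1.09 against 69.9 FPKM), Lat, an adaptor of the T cell receptor (0.485 against 48.6 FPKM), and P2ry10, a receptor of lymphocytes (0.78 against 62.7 FPKM).

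**Figure D1:**
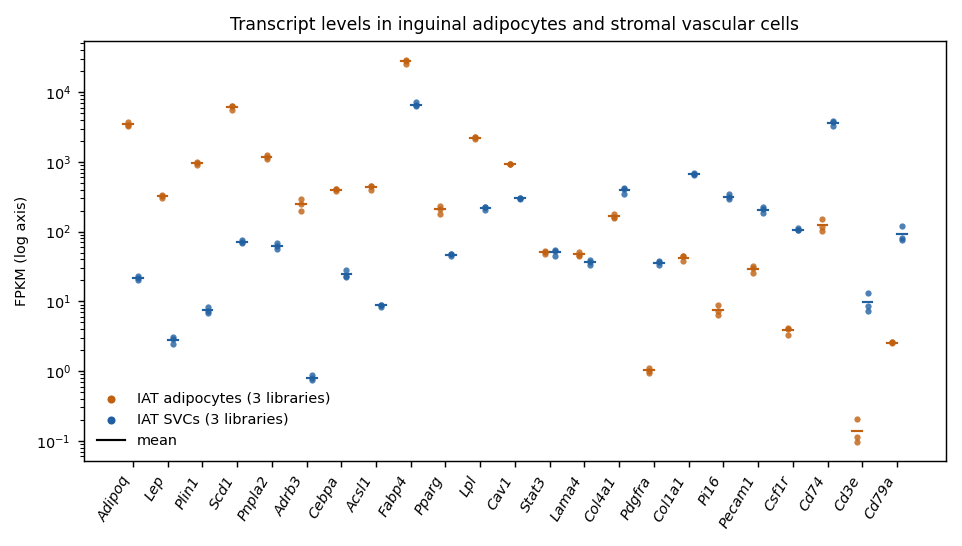
Level of 23 genes in FPKM on a log axis, in 3 libraries each of IAT adipocytes (orange) and IAT SVCs (blue), with the mean as a line. Adipoq, Lep, Plin1 and Adrb3 lie far above in adipocytes, Stat3 lies at the same height in both, and Pi16, Csf1r, Cd74, Cd3e and Cd79a lie far above in SVCs.

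Both labels held against defining markers. Among genes that define adipocytes 17 of 17 tested members were higher and 0 lower in adipocytes (median log2 difference 5.77), and together they made up 8.83% to 9.69% of all FPKM in adipocyte libraries and 0.102% to 0.107% in SVC libraries. The median member had an SVC level at 1.25% of its adipocyte level. Some genes used as adipocyte genes stood well above that share in SVCs. Aqp7, the glycerol channel, was at 48.9 ± 3.88 in adipocytes against 27.4 ± 1.78 FPKM in SVCs, an SVC level of 56.2%. Pparg, the transcription factor that drives adipogenesis, was at 208 ± 26.6 in adipocytes against 46.7 ± 1.35 FPKM in SVCs (22.5%), and Fabp4, a fatty acid binding protein of adipocytes and of endothelium, at 27622 ± 2003 in adipocytes against 6626 ± 437 FPKM in SVCs (24%). In the other direction, markers of other cell types kept unequal shares in the adipocyte libraries. The median member of the list stood at 1.36% of its SVC level for T cells, 2.84% for B cells, 4.05% for macrophages, 4.73% for red blood cells, 6.39% for DPP4+ interstitial progenitors, 17.3% for pericytes and smooth muscle, 18.6% for endothelial cells and 23.5% for Schwann cells. Adipocyte replicate 1 had the highest summed level of macrophage markers (244 FPKM, against 174 and 196) and of endothelial markers (338 FPKM, against 248 and 297). The part of residual stromal cells in the results below was not tested.

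Genes of triglyceride storage were higher in adipocytes. In the lipid droplet list 12 of 12 tested members were higher and 0 lower in adipocytes (median log2 difference 3.08). In triglyceride synthesis 15 of 17 tested members were higher and 1 lower in adipocytes (median log2 difference 2.6). In de novo fatty acid synthesis 14 of 15 tested members were higher and 1 lower in adipocytes (median log2 difference 4.23). Plin1, the perilipin that coats the droplet and gates lipase access, stood at 897, 958 and 990 FPKM in the adipocyte libraries and 8.19, 6.75 and 7.26 FPKM in the SVC libraries. Scd1, the desaturase that makes monounsaturated fatty acids, stood at 5619, 6246 and 6319 FPKM in the adipocyte libraries and 69.1, 69.9 and 77 FPKM in the SVC libraries. The libraries within a fraction lay close together in both genes, and the fractions far apart. Cidec, which fuses small droplets into larger ones, was at 1652 ± 18.3 in adipocytes against 21 ± 1.98 FPKM in SVCs (difference 6.23 ± 0.074 in log2, adjusted p = 2.5e-12). Plin4, another droplet coat protein, was at 575 ± 65.1 in adipocytes against 7.17 ± 0.319 FPKM in SVCs. Plin2, the coat protein found in most cells with droplets, differed by less, at 271 ± 4.36 in adipocytes against 90.9 ± 12.3 FPKM in SVCs (difference 1.57 ± 0.089 in log2, adjusted p = 4.2e-08). For the glycerol backbone, Pck1 encodes an enzyme of the route from pyruvate to glycerol phosphate in fat. Its level was 1177 ± 52.3 in adipocytes against 11.9 ± 0.743 FPKM in SVCs. Gpd1, which makes glycerol phosphate from a glycolytic intermediate, was at 690 ± 24.3 in adipocytes against 10.6 ± 0.193 FPKM in SVCs. Dgat2, the last acyltransferase, was at 1073 ± 24.9 in adipocytes against 17.8 ± 1.91 FPKM in SVCs. Agpat2, an earlier acyltransferase whose loss causes lipodystrophy, had 405 against 10.6 FPKM. Lpin2, a phosphatidate phosphatase, was the 1 member lower in adipocytes (1.57 against 4.05 FPKM). Among synthesis genes, Thrsp (1357 against 31.8 FPKM), the synthase Fasn (803 against 18.6 FPKM) and the citrate carrier Slc25a1 (407 against 20.7 FPKM) were high in adipocytes, and Elovl5, which elongates polyunsaturated fatty acids, was lower (18.7 against 47 FPKM).

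Genes of fatty acid uptake were divided between the fractions. In this list 10 of 18 tested members were higher and 8 lower in adipocytes (median log2 difference 0.58). Lpl, the lipase that frees fatty acids from circulating lipoproteins, stood at 2241, 2256 and 2133 FPKM in the adipocyte libraries and 204, 224 and 224 FPKM in the SVC libraries. Gpihbp1, the capillary protein that carries Lpl across endothelium and holds it there, stood at 111, 78.8 and 89.7 FPKM in the adipocyte libraries and 355, 296 and 293 FPKM in the SVC libraries. The enzyme was therefore higher in adipocytes (difference 3.34 ± 0.077 in log2, adjusted p = 7.9e-11) and its capillary anchor higher in SVCs (difference -1.75 ± 0.12 in log2, adjusted p = 2.3e-07), with no overlap in either. Angptl4, a secreted inhibitor of Lpl, was at 843 ± 32.6 in adipocytes against 108 ± 1.79 FPKM in SVCs. Cd36, a fatty acid carrier of adipocytes, endothelium and macrophages, was high in both, at 956 ± 4.07 in adipocytes against 543 ± 42.7 FPKM in SVCs (difference 0.82 ± 0.082 in log2, adjusted p = 4.3e-06). The lipoprotein receptors Scarb1, which binds HDL (43.2 against 138 FPKM), and Lrp1 (31.1 against 58.5 FPKM) were lower in adipocytes. Acsl1, which activates fatty acids to their CoA esters, was at 434 ± 32.2 in adipocytes against 8.73 ± 0.313 FPKM in SVCs (difference 5.48 ± 0.068 in log2, adjusted p = 2.6e-12).

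Most lipolysis genes were higher in adipocytes, from receptor to lipase. In the list of lipolysis enzymes and kinases 11 of 13 tested members were higher and 2 lower in adipocytes (median log2 difference 2.3). In that of receptors that act on lipolysis 13 of 17 tested members were higher and 4 lower in adipocytes (median log2 difference 3.59). Pnpla2, the triglyceride lipase ATGL, was at 1175 ± 80.6 in adipocytes against 62.8 ± 5.89 FPKM in SVCs (difference 4.2 ± 0.085 in log2, adjusted p = 3.6e-11). Lipe, the hormone-sensitive lipase, was at 929 ± 23.8 in adipocytes against 28.8 ± 1.39 FPKM in SVCs (difference 4.97 ± 0.062 in log2, adjusted p = 2.6e-12). G0s2, which inhibits Pnpla2, had 217 against 25 FPKM, so that lipase and inhibitor were on the same side. Mgll, which releases the last fatty acid, also had a high SVC level, at 321 ± 7.81 in adipocytes against 116 ± 16.6 FPKM in SVCs. Adrb3, the adrenergic receptor that starts lipolysis in mouse fat, stood at 197, 289 and 249 FPKM in the adipocyte libraries and 0.887, 0.793 and 0.734 FPKM in the SVC libraries. All 3 SVC libraries were under 1 FPKM, and adipocyte replicate 1 was below the other 2 adipocyte libraries. Several receptors that restrain lipolysis were higher in adipocytes too: Hcar2, the receptor for niacin and ketone bodies (143 against 1.87 FPKM), Ffar2, a receptor for short-chain fatty acids (45.3 against 1.14 FPKM), and Npr3, which clears the lipolytic natriuretic peptides (86.1 against 4.75 FPKM). The receptors higher in SVCs included Npr1, the signalling receptor for natriuretic peptides (6.51 against 45.9 FPKM), and, at low level, the incretin receptor Gipr (0.346 against 1.74 FPKM) and the antilipolytic adrenergic receptor Adra2a (0.141 against 1.64 FPKM). The 3 natriuretic peptide receptors thus differed, with Npr3 at 3.92, Npr1 at -2.64 and Npr2 at -0.41 on the log2 scale, and Npr2 was not called under median-of-ratios scaling (0.03).

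Nearly all listed mitochondrial genes were higher in adipocytes. In the citric acid cycle with pyruvate entry 23 of 23 tested members were higher and 0 lower in adipocytes (median log2 difference 2.15). In fatty acid oxidation 17 of 18 tested members were higher and 1 lower in adipocytes (median log2 difference 2.69). In branched-chain amino acid breakdown 19 of 20 tested members were higher and 0 lower in adipocytes (median log2 difference 2.68). The machinery of respiration followed, where among respiratory chain subunits 76 of 80 tested members were higher and 3 lower in adipocytes (median log2 difference 1.77). Among mitochondrial ribosomal proteins 72 of 76 tested members were higher and 0 lower in adipocytes (median log2 difference 1.28). Respiratory chain transcripts encoded in the nucleus made up 5.16% to 5.50% of FPKM in adipocytes and 1.41% to 1.52% in SVCs. Pcx, pyruvate carboxylase, which refills the cycle and feeds fatty acid synthesis, differed most in its list, at 357 ± 18.9 in adipocytes against 4.95 ± 0.327 FPKM in SVCs (difference 5.91 ± 0.065 in log2, adjusted p = 2.5e-12). Hadh and Echs1, enzymes of beta-oxidation, were at 286 against 26.5 FPKM and 281 against 22.1 FPKM, and Aldh6a1, of valine breakdown, at 186 against 9.7 FPKM. Cpt1a, 1 of the forms of the gate enzyme for fatty acid entry, was the oxidation gene lower in adipocytes (7.9 against 17.4 FPKM). Of 14 brown and beige fat genes 8 were tested and all 8 were higher in adipocytes. Among them were Cox8b (254 against 9.9 FPKM), Cidea (40.6 against 0.392 FPKM) and the potassium channel Kcnk3 (18 against 1.75 FPKM). Cidea, Ppargc1a and Otop1 passed the filter only through the adipocyte libraries, so the filter fixed their direction. Below the filter, Tmem26 was lower in adipocytes (0.0235 against 1.05 FPKM) and Tbx1 higher (1.17 against 0.609 FPKM). The brown fat uncoupling gene Ucp1 was below the filter, at 0.434 to 0.795 FPKM in adipocytes and 0.549 to 0.922 FPKM in SVCs.

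Cytosolic ribosomes went the other way. Among their proteins 4 of 84 tested members were higher and 79 lower in adipocytes (median log2 difference -1.46), and they made up 7.35% to 7.99% of FPKM in adipocytes and 17.9% to 20.0% in SVCs. Under median-of-ratios scaling 72 were lower and 5 higher. Rplp1, of the ribosomal stalk, was at 1129.6 ± 82.3 in adipocytes against 3174 ± 376 FPKM in SVCs (difference -1.49 ± 0.12 in log2, adjusted p = 5.7e-07). The members higher in adipocytes included Rps27l (153 against 92.7 FPKM), Rps4l (34.2 against 17.9 FPKM) and Rpl26 (29 against 13.7 FPKM). Ribosomal protein genes have many processed copies, and how the authors' counting divided reads between them is unknown. Transcripts for the 2 kinds of ribosome thus lay on opposite sides, with a median of 1.28 for mitochondrial and -1.46 for cytosolic proteins.

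**Figure D2:**
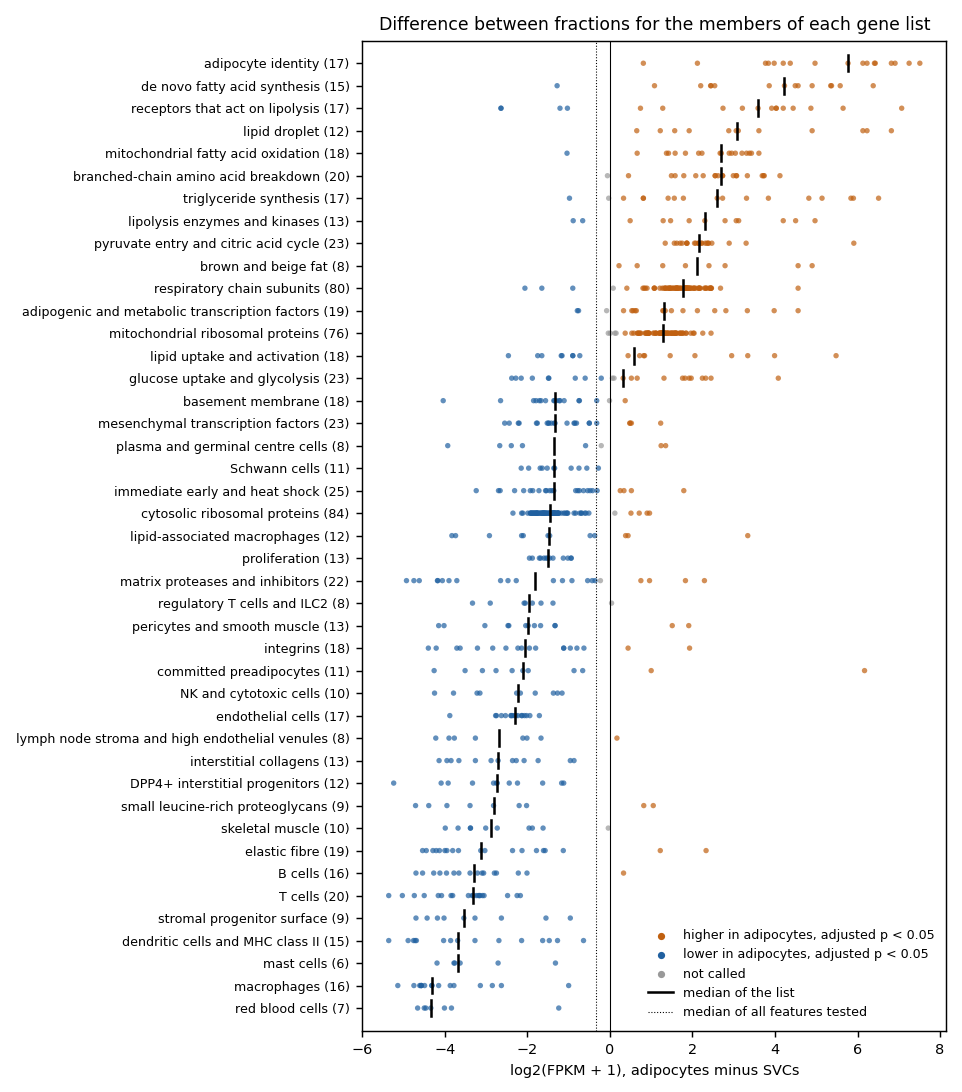
Difference between fractions, as log2(FPKM + 1) in adipocytes minus SVCs, for each tested member (point) of the gene lists with at least 5 tested members (number in brackets), ordered by median (black bar). Adipocyte identity has the highest median, 5.77, lipid and mitochondrial lists follow, and the red blood cell, macrophage and MHC class II lists lie at the low end, while the dotted line marks the median of all features, -0.33.

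Glucose use was divided gene by gene. In uptake and glycolysis 12 of 23 tested members were higher and 9 lower in adipocytes (median log2 difference 0.32). The insulin-regulated transporter Slc2a4 (GLUT4) stood at 79.7, 93.8 and 89.2 FPKM in the adipocyte libraries and 4.77, 4.1 and 3.81 FPKM in the SVC libraries. The ubiquitous transporter Slc2a1 (GLUT1) stood at 12.2, 10.8 and 12.7 FPKM in the adipocyte libraries and 33.9, 36.8 and 34.5 FPKM in the SVC libraries. Neither overlapped, so that Slc2a4 supplied 86.7% to 89.7% of the summed FPKM of the pair in adipocytes and 9.94% to 12.3% in SVCs. The hexokinases divided likewise, with Hk2 at 54.3 against 9.19 FPKM and Hk1 at 5.14 against 21.6 FPKM. Of 11 tested genes for the steps from aldolase to lactate dehydrogenase 9 were higher and 2 lower in adipocytes, the lower ones being the enolases Eno2 (0.147 against 2.22 FPKM) and Eno3 (6.03 against 11.6 FPKM). Aldoa (aldolase) was at 1101 ± 15.3 in adipocytes against 281 ± 19.7 FPKM in SVCs (difference 1.97 ± 0.077 in log2, adjusted p = 2.5e-09), and Ldha (lactate dehydrogenase) had 837 against 246 FPKM. Gapdh, often used as a reference gene, was at 948 ± 75.9 in adipocytes against 601 ± 51.7 FPKM in SVCs (difference 0.66 ± 0.095 in log2, adjusted p = 7.5e-05). The lactate carrier Slc16a1 was lower in adipocytes (16.7 against 25.7 FPKM). Pfkp, a phosphofructokinase, was at 19.8 against 23.1 FPKM and its call depended on the scale, lower in adipocytes as deposited (difference -0.21 ± 0.059 in log2, adjusted p = 0.00696) and higher under median-of-ratios scaling.

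Related genes of 1 family were also compared in pairs. Of 42 pairs of related genes, chosen as a form known in adipocytes and a second form, 38 had both genes tested. In 18 pairs the first gene was higher in adipocytes and the second higher in SVCs, in 15 both were higher in adipocytes, in 2 both were higher in SVCs, and in 3 a gene was not called. The pairs were chosen from knowledge of adipocytes and with results of these data known, so the direction of the first gene is no finding. The second gene was higher in SVCs in 22 of the 38 pairs (57.9%), near the 55.5% of all features, so the count of divided pairs is no result about these families. FPKM is scaled by length, so shares within a pair compare transcripts of unequal length. For the inhibitory G protein that couples adenosine and niacin receptors, Gnai1 (96.5 against 4.98 FPKM) supplied 45.1% to 48.6% of the summed FPKM of the pair in adipocytes and 1.47% to 1.74% in SVCs, so that adipocytes held both forms and SVCs almost only Gnai2. Prkar2b, the regulatory subunit of protein kinase A typical of adipocytes (190 against 7.47 FPKM), supplied 97.7% to 98.4% of the summed FPKM of the pair in adipocytes and 55.2% to 61.5% in SVCs, the rest being Prkar2a.

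Insulin and sterol signalling genes lay on both sides. Akt2, the Akt form needed for insulin action, was at 166 ± 7.16 in adipocytes against 32.3 ± 1.38 FPKM in SVCs (difference 2.33 ± 0.061 in log2, adjusted p = 1.6e-10). Srebf1, which drives fatty acid synthesis, stood at 97.6, 134 and 124 FPKM in the adipocyte libraries and 20.2, 19.5 and 18.5 FPKM in the SVC libraries. Srebf2, which drives cholesterol synthesis, stood at 5.97, 6.2 and 6.47 FPKM in the adipocyte libraries and 25.2, 22.8 and 25 FPKM in the SVC libraries. Neither overlapped, and Srebf1 supplied 94.2% to 95.6% of the summed FPKM of the pair in adipocytes and 42.4% to 46.1% in SVCs. Some pairs did not divide. Irs1 and Irs2, the insulin receptor substrates, were both higher in adipocytes (7.47 against 2.14 FPKM and 33.1 against 19.1 FPKM). So were Pygl and Pygb, the glycogen phosphorylases (87.8 against 13.6 FPKM and 87.7 against 15.2 FPKM), and Acacb and Acaca, the acetyl-CoA carboxylases (16 against 2.7 FPKM and 118 against 4.28 FPKM). In the carboxylase pair Acacb had the larger share in SVCs, 38.3% to 38.9%, than in adipocytes, 11.7% to 12.2%. Tnfrsf1a, the widely expressed TNF receptor, was not called on the deposited scale (96.8 ± 3.09 in adipocytes against 99.5 ± 11.8 FPKM in SVCs, difference -0.03 ± 0.082 in log2, adjusted p = 0.701) and was called higher in adipocytes under median-of-ratios scaling, while Tnfrsf1b was lower in adipocytes (2.35 against 29.7 FPKM).

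**Figure D3:**
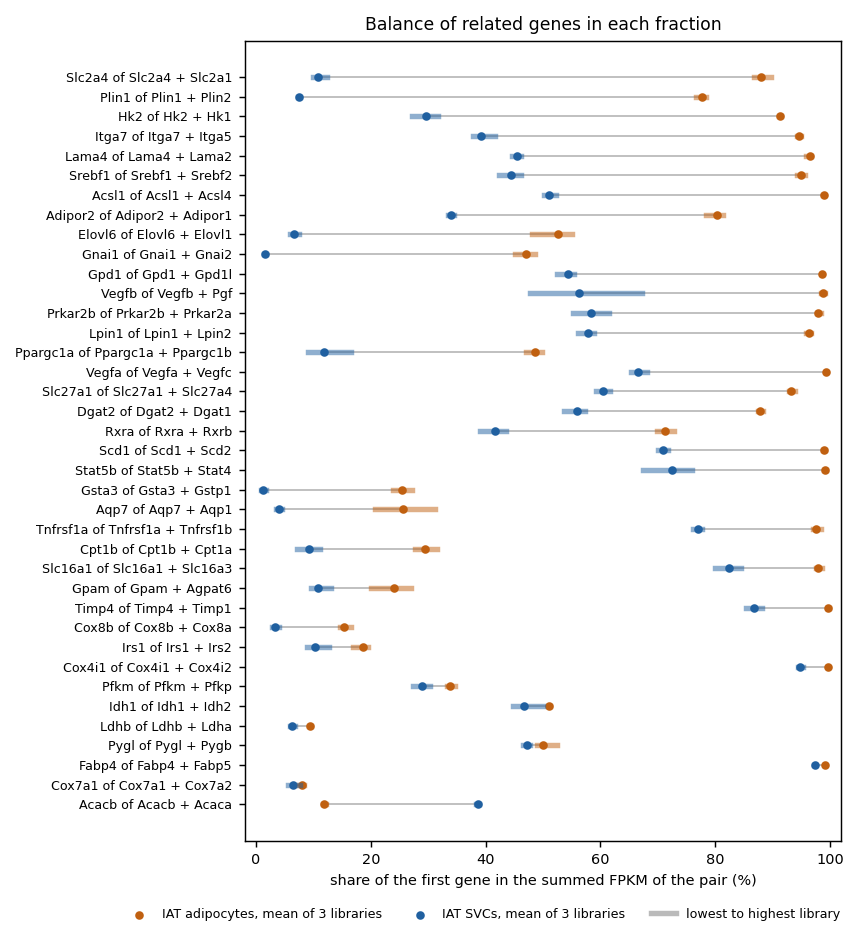
Share of the first gene in the summed FPKM of each of 38 pairs of related genes, in IAT adipocytes (orange) and IAT SVCs (blue), with the mean of 3 libraries as a point and the lowest to highest library as a band. Slc2a4 of Slc2a4 + Slc2a1 moves furthest, from 9.94% to 12.3% in SVCs to 86.7% to 89.7% in adipocytes, and Fabp4 of Fabp4 + Fabp5 stays above 97% in both.

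Secreted signals were set against their receptors with 85 ligand and receptor pairs, of which 68 had both genes tested. In 37 pairs both genes were higher in SVCs, in 12 the ligand was higher in adipocytes and the receptor in SVCs, in 7 the ligand was higher in SVCs and the receptor in adipocytes, and in 8 both were higher in adipocytes. Of 64 ligands tested in these pairs 17 were higher in adipocytes and 44 in SVCs, and of 58 receptors 12 and 45. Over all features 32.1% were higher in adipocytes and 55.5% in SVCs. Ligands and receptors thus each lay mostly with SVCs. The number of pairs this alone would give was not computed, so the counts of pairs are no result about signalling. Pairs that share a gene are not independent, and transcript levels do not show that a signal passed.

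Signals with the ligand in adipocytes and the receptor in SVCs included those of Lep, Vegfa, Vegfb and Enpp2. Lep, the gene of leptin, stood at 306, 338 and 323 FPKM in the adipocyte libraries and 2.89, 2.42 and 3.1 FPKM in the SVC libraries. Its receptor Lepr was at 0.0565 ± 0.0169 in adipocytes against 2.77 ± 0.728 FPKM in SVCs (difference -1.82 ± 0.13 in log2, adjusted p = 2.3e-07), close to 0 in adipocytes. Vegfa, the main growth factor of blood vessels, stood at 141, 161 and 165 FPKM in the adipocyte libraries and 29.9, 28.2 and 31 FPKM in the SVC libraries. Its endothelial receptor Kdr stood at 14, 10.6 and 14.2 FPKM in the adipocyte libraries and 66.2, 48.5 and 67.7 FPKM in the SVC libraries. The groups did not overlap in any of these genes. Vegfb (156 against 12.1 FPKM) lay opposite Flt1 (5.37 against 32.8 FPKM) in the same way. Other ligands of vessel growth were higher in SVCs, among them Vegfc (1.03 against 15 FPKM), Angpt2 (1.13 against 7.25 FPKM) and Apln (1.6 against 6.56 FPKM), while Angpt1 was higher in adipocytes (8.96 against 4.86 FPKM). Enpp2, the secreted enzyme autotaxin that makes lysophosphatidic acid, was at 102 ± 3.13 in adipocytes against 44.1 ± 1.97 FPKM in SVCs, and Lpar1, a receptor for that lipid, at 0.544 ± 0.0964 in adipocytes against 14.2 ± 0.657 FPKM in SVCs. Igf1 (48 against 18.7 FPKM) and Pdgfc (8.2 against 4.56 FPKM) are growth factors. Their receptors Igf1r (0.646 against 3.35 FPKM) and Pdgfra (1.02 against 35.6 FPKM), the second a marker of progenitors, were higher in SVCs. Agt, angiotensinogen, was at 24.7 ± 6.2 in adipocytes against 14.1 ± 1.66 FPKM in SVCs (difference 0.74 ± 0.15 in log2, adjusted p = 0.00104), and its receptor Agtr1a at 1.4 ± 0.101 in adipocytes against 18.2 ± 0.38 FPKM in SVCs. For adiponectin, the receptor Adipor2 was higher in adipocytes (161 ± 15.4 in adipocytes against 28.5 ± 0.606 FPKM in SVCs) and the binding protein Cdh13 in SVCs (6.19 ± 0.993 in adipocytes against 41.3 ± 6.45 FPKM in SVCs). Adipor1 was at 39.4 ± 0.0837 in adipocytes against 55.5 ± 1.14 FPKM in SVCs, lower in adipocytes as deposited (difference -0.48 ± 0.052 in log2, adjusted p = 7.5e-06) and not called under median-of-ratios scaling.

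The promoter of Lep is shown because Cebpa, a transcription factor that binds a C/EBP site there, was among the transcription factors highest in adipocytes. The 250 bases before its RefSeq start (GRCm38.p6, chr6:29059971-29060220, + strand) are given 5′ to 3′, with the palindrome TTGCGCAA in capitals.
Lep: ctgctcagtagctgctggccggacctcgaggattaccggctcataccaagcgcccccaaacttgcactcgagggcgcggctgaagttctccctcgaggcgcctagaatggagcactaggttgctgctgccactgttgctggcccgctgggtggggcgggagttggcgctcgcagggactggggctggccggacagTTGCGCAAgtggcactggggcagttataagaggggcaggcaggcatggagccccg
The match lies 55 bases before the start. The same letters, which read alike on both strands, occur in 0.164% of 32851 promoters of that length. The motif was chosen after several had been looked at, and a match is a description of the sequence, not of binding.

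Pairs of the reverse direction included developmental signals. Fgf7 (0.466 against 9.67 FPKM), Wnt2 (0.148 against 5.25 FPKM), Bmp4 (0.761 against 10.4 FPKM) and the endothelial peptide Edn1 (0.477 against 14.1 FPKM) were higher in SVCs. Of their receptors, Fgfr2 (1.45 against 0.694 FPKM), Fzd4 (34.6 against 8.5 FPKM), Bmpr1a (13.4 against 7.64 FPKM) and Ednra (5.96 against 4.56 FPKM) were higher in adipocytes. The call for Ednra (0.32) was lost without adipocyte replicate 2 (0.24), and Ednrb, the other receptor of Edn1, was higher in SVCs (4.52 against 35.1 FPKM). Fgf10, another ligand of Fgfr2, was higher in adipocytes (15.5 against 2.33 FPKM). Among pairs with both genes higher in adipocytes was Inhbb, an activin subunit, with Acvr1c, the receptor ALK7 (12.9 against 2.47 FPKM and 14.6 against 0.0888 FPKM). Rarres2 (chemerin) with Cmklr1 was another (811 against 403 FPKM and 40 against 12.5 FPKM). Nrg4, a secreted factor known from brown fat, stood at 44.6, 45.7 and 46.6 FPKM in the adipocyte libraries and 1.03, 1.04 and 1.29 FPKM in the SVC libraries, with its receptor Erbb4 near 0 in both fractions. Several chemokine pairs were higher in SVCs on both sides. Cxcl12 had 15.2 against 155 FPKM and its receptor Cxcr4 5.19 against 170 FPKM. Ccl19, a ligand of Ccr7, had 2.06 against 40.6 FPKM. Csf1, which keeps macrophages alive, had 12.4 against 46.6 FPKM, and its receptor Csf1r is described with the macrophages. Ccl2, the monocyte attractant, was high in both and not called (245 ± 34.7 in adipocytes against 287 ± 30.1 FPKM in SVCs, difference -0.23 ± 0.11 in log2, adjusted p = 0.0681), though it was called lower in adipocytes without adipocyte replicate 1 (-0.34) or without SVC replicate 2 (-0.29), while its receptor Ccr2 was lower in adipocytes (0.376 against 11.6 FPKM).

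**Figure D4:**
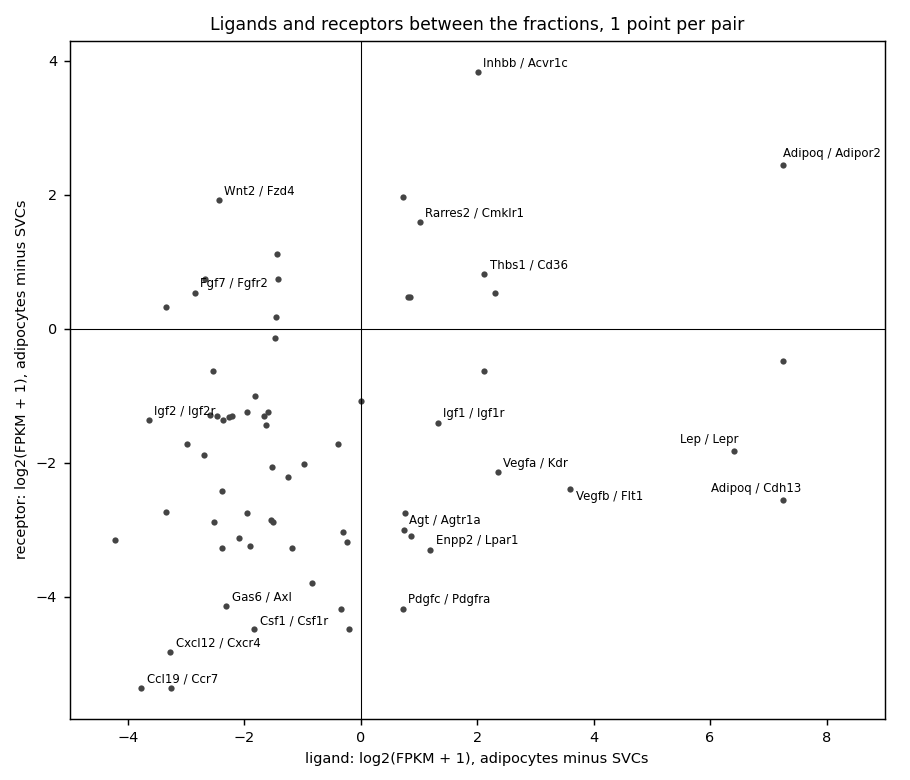
Each point is 1 of 68 ligand and receptor pairs, with the difference of the ligand on the x axis and that of the receptor on the y axis, both as log2(FPKM + 1) in adipocytes minus SVCs. The lower left holds 37 pairs with both genes higher in SVCs, and Lep with Lepr, Vegfa with Kdr and Enpp2 with Lpar1 lie at the lower right.

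Genes of the fibrillar matrix were higher in SVCs. Among interstitial collagens 0 of 13 tested members were higher and 13 lower in adipocytes (median log2 difference -2.71). Among elastic fibre genes 2 of 19 tested members were higher and 17 lower in adipocytes (median log2 difference -3.13). Among small leucine-rich proteoglycans 2 of 9 tested members were higher and 7 lower in adipocytes (median log2 difference -2.82). Col1a1, a chain of the main fibrillar collagen, stood at 44.7, 38.3 and 44.4 FPKM in the adipocyte libraries and 679, 692 and 639 FPKM in the SVC libraries. Dcn, which encodes decorin, a regulator of collagen fibrils, stood at 97.7, 81.6 and 84.3 FPKM in the adipocyte libraries and 2249, 2389 and 2326 FPKM in the SVC libraries. The highest adipocyte library was more than 10-fold below the lowest SVC library in both. Col3a1 was the highest collagen in SVCs (139 ± 7.7 in adipocytes against 1776 ± 17.9 FPKM in SVCs, difference -3.66 ± 0.072 in log2, adjusted p = 3.0e-11), and Mfap5, a microfibril protein, the elastic fibre gene with the largest difference (3.92 against 113 FPKM). Basement membrane genes differed by less. There 1 of 18 tested members were higher and 16 lower in adipocytes (median log2 difference -1.32). Col4a1, its main collagen chain, was at 165 ± 11 in adipocytes against 391 ± 39.4 FPKM in SVCs (difference -1.23 ± 0.087 in log2, adjusted p = 2.5e-07), and Nid1, the linker nidogen, had 82.3 against 179 FPKM. Lama4, the laminin alpha chain of fat and vessels, was higher in adipocytes, at 47.3 ± 3.95 in adipocytes against 36.6 ± 3.48 FPKM in SVCs (difference 0.37 ± 0.084 in log2, adjusted p = 0.00201), while Lama2 stood at 1.88, 1.52 and 1.78 FPKM in the adipocyte libraries and 44.2, 38.3 and 49.2 FPKM in the SVC libraries. Lama2 did not overlap, and Lama4 supplied 95.9% to 96.8% of the summed FPKM of the pair in adipocytes and 44.6% to 46.1% in SVCs.

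Matrix enzymes and adhesion receptors held more exceptions. In the list of proteases and inhibitors 4 of 22 tested members were higher and 17 lower in adipocytes (median log2 difference -1.82), led by Timp2 (12.3 against 405 FPKM), Mmp2, the gelatinase of fibroblasts (11.5 against 336 FPKM), Timp3 (33.8 against 217 FPKM) and Plau, urokinase (11.1 against 177 FPKM). Members higher in adipocytes included Timp4, a metalloprotease inhibitor (170 against 47.1 FPKM), and Adamts5, an aggrecanase (33.3 against 19.5 FPKM). Among integrins 2 of 18 tested members were higher and 16 lower in adipocytes (median log2 difference -2.05). Itga7, a laminin receptor alpha chain, was higher in adipocytes (66.8 ± 1.9 in adipocytes against 16.9 ± 1.81 FPKM in SVCs, difference 1.93 ± 0.075 in log2, adjusted p = 2.5e-09), and Itgb5 by less (50 against 36.7 FPKM). Itga5, the fibronectin receptor chain, was lower (3.75 against 26.3 FPKM), as was the shared chain Itgb1 (64.5 against 127 FPKM). Further genes higher in adipocytes in lists that otherwise lay with SVCs were Ltbp3, which stores latent TGF-beta (80.6 against 15.3 FPKM), Prelp (184 against 88.5 FPKM) and Podn (81.6 against 45.7 FPKM), both leucine-rich proteoglycans, and Mcam, a surface marker of pericytes (177 ± 4.79 in adipocytes against 46.5 ± 6.14 FPKM in SVCs, difference 1.91 ± 0.088 in log2, adjusted p = 8.3e-09).

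Transcription factors divided by lineage. Among adipogenic and metabolic factors 16 of 19 tested members were higher and 2 lower in adipocytes (median log2 difference 1.3). Cebpa stood at 381, 411 and 405 FPKM in the adipocyte libraries and 27.9, 22.8 and 22.6 FPKM in the SVC libraries, and Pparg at 180, 233 and 210 FPKM in the adipocyte libraries and 47.8, 45.2 and 47.2 FPKM in the SVC libraries. Both were higher in adipocytes without overlap, by 3.98 and 2.12 on the log2 scale. The early adipogenic factors were split, with Cebpb at 162 ± 10.2 in adipocytes against 105 ± 21.5 FPKM in SVCs (difference 0.64 ± 0.12 in log2, adjusted p = 6.2e-04) and Cebpd at 33.2 ± 1.32 in adipocytes against 58.1 ± 5.53 FPKM in SVCs (difference -0.79 ± 0.075 in log2, adjusted p = 2.9e-06). Among mesenchymal factors 4 of 23 tested members were higher and 19 lower in adipocytes (median log2 difference -1.33). Meox2 (5.56 against 29 FPKM), Prrx1, of limb and skin mesenchyme (6.28 against 23.6 FPKM), and Tcf4 (6.97 against 19.3 FPKM) were among those higher in SVCs, and Twist1 too on the deposited scale (24.1 against 34.5 FPKM), with no call under median-of-ratios scaling. Zfp423, a zinc finger factor of preadipocytes and of white adipocyte identity, was higher in adipocytes (10.9 ± 0.58 in adipocytes against 4.1 ± 0.359 FPKM in SVCs, difference 1.23 ± 0.077 in log2, adjusted p = 9.3e-08), and so were Egr2 (59 against 40.9 FPKM) and Zeb2 (21.3 against 14.9 FPKM).

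Immediate early genes, which tissue handling and digestion are known to raise, were high in both fractions. In this list, which also holds heat shock genes, 4 of 25 tested members were higher and 21 lower in adipocytes (median log2 difference -1.36), and its members made up 1.31% to 1.45% of FPKM in adipocytes and 2.16% to 2.18% in SVCs. Fos stood at 1177, 1424 and 1303 FPKM in the adipocyte libraries and 1632, 1891 and 1705 FPKM in the SVC libraries. Its difference, -0.42, was called, but it is near the median of all features and lost its call under median-of-ratios scaling. Junb (557 ± 7.89 in adipocytes against 1655 ± 157 FPKM in SVCs) and the phosphatase Dusp1 (166 ± 6.93 in adipocytes against 709 ± 23.6 FPKM in SVCs) were lower in adipocytes. Btg2, an antiproliferative early gene, was higher in adipocytes (334 ± 18.4 in adipocytes against 96.2 ± 12.3 FPKM in SVCs, difference 1.79 ± 0.092 in log2, adjusted p = 2.0e-08), as was Zfp36, which degrades cytokine mRNAs (1248 against 982 FPKM). The call for Zfp36 (0.34) was lost without adipocyte replicate 2 (0.27). The part of the digestion in the levels of other genes was not tested.

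Progenitor genes of the interstitial and the committed kind were mostly higher in SVCs. All 12 genes of the DPP4+ interstitial progenitor list were lower in adipocytes (median -2.74), and among stromal surface genes 0 of 9 tested members were higher and 9 lower in adipocytes (median log2 difference -3.54). Pdgfra stood at 1.01, 1.11 and 0.952 FPKM in the adipocyte libraries and 33.1, 36.1 and 37.6 FPKM in the SVC libraries. Cd34, another progenitor and endothelial surface gene, stood at 12.7, 9.99 and 11.8 FPKM in the adipocyte libraries and 212, 187 and 201 FPKM in the SVC libraries. Neither overlapped. Of the genes of committed preadipocytes 2 of 11 tested members were higher and 9 lower in adipocytes (median log2 difference -2.11). Icam1 (24.8 against 288 FPKM) and Cxcl14 (8.32 against 176 FPKM) were lower in adipocytes, while Apoc1, an apolipoprotein, was higher (384 ± 10.1 in adipocytes against 4.36 ± 0.388 FPKM in SVCs, difference 6.17 ± 0.066 in log2, adjusted p = 2.5e-12) and F3, tissue factor, likewise (66.7 against 33.2 FPKM). Proliferation genes were low: 13 were tested, all were lower in adipocytes, and only Pcna, a replication clamp, was above 6 FPKM in SVCs (60.9 against 236 FPKM).

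Most vessel, nerve and muscle genes lay in SVCs too. All 17 endothelial genes were lower in adipocytes. Pecam1, the endothelial adhesion molecule, stood at 32.6, 25.2 and 30.3 FPKM in the adipocyte libraries and 227, 183 and 208 FPKM in the SVC libraries, with adipocyte replicate 1 highest among adipocytes, as for the summed list. Tagln, a smooth muscle gene, was at 7.03 against 142 FPKM, and Myh11, smooth muscle myosin, at 0.955 against 30.7 FPKM. The pericyte genes Mcam and Cspg4 (10.4 against 3 FPKM) went the other way. In the Schwann cell list 0 of 11 tested members were higher and 11 lower in adipocytes (median log2 difference -1.36). Lyve1, of lymphatic vessels and some macrophages, was at 1.05 ± 0.0486 in adipocytes against 39.1 ± 3.25 FPKM in SVCs. In the skeletal muscle list 0 of 10 tested members were higher and 9 lower in adipocytes (median log2 difference -2.87). Tnnt3, troponin of fast skeletal muscle, was at 0.426 ± 0.151 in adipocytes against 21.6 ± 2.1 FPKM in SVCs. Like other members of this list, Tnnt3 passed the filter only through the SVC libraries. Acta1, the member of this list with the highest level, was not called (24.8 ± 10.5 in adipocytes against 24.3 ± 4.33 FPKM in SVCs, difference -0.04 ± 0.24 in log2, adjusted p = 0.88).

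Immune genes lay far toward SVCs. In the macrophage list 0 of 16 tested members were higher and 16 lower in adipocytes (median log2 difference -4.32). In the list of dendritic cells and MHC class II 0 of 15 tested members were higher and 15 lower in adipocytes (median log2 difference -3.69). Csf1r, the growth factor receptor of macrophages, stood at 4.12, 3.34 and 3.99 FPKM in the adipocyte libraries and 111, 105 and 105 FPKM in the SVC libraries. Lyz2, lysozyme of myeloid cells, stood at 54.2, 33.9 and 42.1 FPKM in the adipocyte libraries and 1099, 1009 and 1017 FPKM in the SVC libraries. Adipocyte replicate 1 was highest among adipocytes in both, and no values overlapped between the fractions. Cd74, the invariant chain of MHC class II, was at 123 ± 25.2 in adipocytes against 3623 ± 323 FPKM in SVCs (difference -4.89 ± 0.14 in log2, adjusted p = 2.4e-10). The chains H2-Aa (54.1 against 1476 FPKM) and H2-Eb1 (31.1 against 822 FPKM) followed it. Genes of lipid-associated macrophages were mixed. There 3 of 12 tested members were higher and 9 lower in adipocytes (median log2 difference -1.48), and the 3 higher ones, Lpl, Ctsb and Fabp5, are also expressed by adipocytes. Mast cell genes were lower in adipocytes in 6 of 6 tested, led by Mcpt4 (1.27 against 40.4 FPKM). Some of them, such as Cpa3 (0.65 against 19.3 FPKM), passed the filter only through the SVC libraries.

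Promoters of MHC class II genes are shown because these genes moved together, and because their shared boxes are a textbook case of a promoter code read by a common activator. Of 7 such genes looked for, 5 had a RefSeq entry of 250 bases before the start (GRCm38.p6). The Y box ATTGG was found on either strand in 5 of 5, against 33.8% of 32851 promoters, and a core of the X box, AACNGATG, on either strand in 2 of 5, against 1.98%. The matches of the 2 motifs did not overlap. These motifs were also chosen after several had been looked at. The 2 promoters with both boxes, on the + strand at chr17:34305617-34305866 for H2-Eb1 and chr17:34152941-34153190 for H2-DMb1, are given 5′ to 3′ with the boxes in capitals, the Y box also where it reads CCAAT.
H2-Eb1: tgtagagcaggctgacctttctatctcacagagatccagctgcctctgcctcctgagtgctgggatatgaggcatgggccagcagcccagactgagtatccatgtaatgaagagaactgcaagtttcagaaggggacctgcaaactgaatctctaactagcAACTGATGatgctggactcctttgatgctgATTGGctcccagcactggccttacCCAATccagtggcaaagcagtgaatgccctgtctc
H2-DMb1: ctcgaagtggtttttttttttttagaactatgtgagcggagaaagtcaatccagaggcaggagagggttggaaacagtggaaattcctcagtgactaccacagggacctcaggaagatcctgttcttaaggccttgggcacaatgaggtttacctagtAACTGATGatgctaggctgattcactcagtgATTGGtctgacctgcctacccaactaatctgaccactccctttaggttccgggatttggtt
The X box core lies 89 and 92 bases before the start, and the Y box next to it 59 and 61 bases before it. No match in the other promoters says only that these letters are not in the window. H2-DMb1, which helps load peptides, was at 3.5 ± 0.684 in adipocytes against 56.5 ± 3.79 FPKM in SVCs.

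Lymphocyte genes were low in adipocyte libraries. In the T cell list 0 of 20 tested members were higher and 20 lower in adipocytes (median log2 difference -3.33). In the B cell list 1 of 16 tested members were higher and 15 lower in adipocytes (median log2 difference -3.3). In the list of NK and cytotoxic cells 0 of 10 tested members were higher and 10 lower in adipocytes (median log2 difference -2.22). All 10 were under 1 FPKM in every adipocyte library, as was the T cell gene Cd3e, so the filter fixed their direction. Cd3e, a chain of the T cell receptor complex, stood at 0.0958, 0.204 and 0.113 FPKM in the adipocyte libraries and 7.27, 13.2 and 8.52 FPKM in the SVC libraries. Cd79a, a chain of the B cell receptor, stood at 2.59, 2.57 and 2.5 FPKM in the adipocyte libraries and 76.7, 121 and 81.8 FPKM in the SVC libraries. SVC replicate 2 was the highest for both genes, and its summed T and B cell markers (521 and 517 FPKM) were above those of SVC replicate 1 (334 and 357) and replicate 3 (385 and 390). Tcf7, a transcription factor of naive and memory T cells, was at 0.485 ± 0.0297 in adipocytes against 39.5 ± 9.38 FPKM in SVCs. In the list of lymph node stroma and high endothelial venules 1 of 8 tested members was higher and 7 lower in adipocytes (median log2 difference -2.68). The higher one was Ltbr (37.7 against 33.5 FPKM). Cxcl13, which guides B cells, was among the lower ones (1.33 ± 0.357 in adipocytes against 42.1 ± 0.269 FPKM in SVCs). Glycam1, of high endothelial venules, stood at 0, 0.0713 and 0.079 FPKM in the adipocyte libraries and 6.59, 29.7 and 15.4 FPKM in the SVC libraries. Other members, Madcam1, Chst4 and Fcgbp, were below the filter, at 0.285, 0.211 and 0.0133 FPKM in SVCs. The part of lymph node tissue in the lymphocyte result was not tested. Without SVC replicate 2, 20 of 20 T cell genes and 15 of 16 B cell genes were still lower in adipocytes. The single B cell list member higher in adipocytes was Ebf1 (23 ± 1.73 in adipocytes against 18.1 ± 1.21 FPKM in SVCs), which also acts in adipocyte development.

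Globin features had the highest single values in SVCs. Red blood cell genes made up 4.75% to 5.57% of FPKM in SVCs and 0.289% to 0.355% in adipocytes, and 7 of 7 tested features were lower in adipocytes. The globin genes are near-identical copies, so that their individual values are uncertain.

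Some abundant genes lay at the same level in both fractions as deposited. Of features of at least 50 FPKM in both, the 10 with the smallest difference were Ran, Lasp1, Stat3, Cyb5r3, Mrpl52, Tax1bp1, Ilk, Psenen, Eif3g and Bzw1. Stat3, which carries leptin and interleukin-6 signals, stood at 51.4, 47.7 and 52.6 FPKM in the adipocyte libraries and 54.9, 44.7 and 52.2 FPKM in the SVC libraries. The values overlapped, and the difference was 0.0 ± 0.081. Ilk, integrin-linked kinase, was at 72.4 ± 1.39 in adipocytes against 72 ± 2.67 FPKM in SVCs. Under median-of-ratios scaling all 10 were called higher in adipocytes, so that equality holds only on the deposited scale.

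The inguinal division was then set against the epididymal one, by the fraction difference in IAT minus the fraction difference in EAT, in a fit on all 12 libraries. Of 13175 features 4281 were called (32.5%), 1940 with a higher value in IAT (14.7%) and 2341 with a lower one (17.8%). The list counts below hold only members that passed the filter in the inguinal libraries. Members high only in EAT, such as Msln, are thus left out, while members such as Ckm entered through the inguinal SVCs. These counts therefore lean on inguinal levels. Adipocyte genes were less separated in IAT: 12 of 17 identity genes had a lower value and 1 a higher one (median -0.67). Adipoq was at 4149.7 ± 317 in EAT adipocytes against 7.18 ± 0.648 FPKM in EAT SVCs, so that SVCs held more of it in IAT (difference between depots -1.73 ± 0.13, adjusted p = 6.1e-07). Lymphocyte genes were further separated in IAT, with 20 of 20 T cell genes and 16 of 16 B cell genes lower (medians -1.92 and -1.36). Cd3e was at 0.02 ± 0.0177 in EAT adipocytes against 1.38 ± 0.215 FPKM in EAT SVCs (-1.97 ± 0.21, adjusted p = 1.6e-05). Macrophage genes were lower in 15 of 16 (median -1.36). Schwann cell genes were lower in 10 of 11 (median -1.06), and skeletal muscle genes in 9 of 10 (median -2.33). Csf1r was at 22.2 ± 4.58 in EAT adipocytes against 209 ± 10.6 FPKM in EAT SVCs (difference between depots -1.3 ± 0.18, adjusted p = 1.2e-04). In IAT it was at 3.82 ± 0.419 in adipocytes against 107 ± 3.34 FPKM in SVCs, so its level was higher in both epididymal fractions. A lower value here thus does not mean a higher level in inguinal SVCs. Mast cell genes went the other way, higher in 6 of 6 (median 0.63). So did 13 of 19 elastic fibre genes (median 0.78) and 11 of 18 genes of fatty acid oxidation (median 0.36). Depot and its neighbouring tissue, such as lymph node or muscle, cannot be told apart here.

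**Figure D5:**
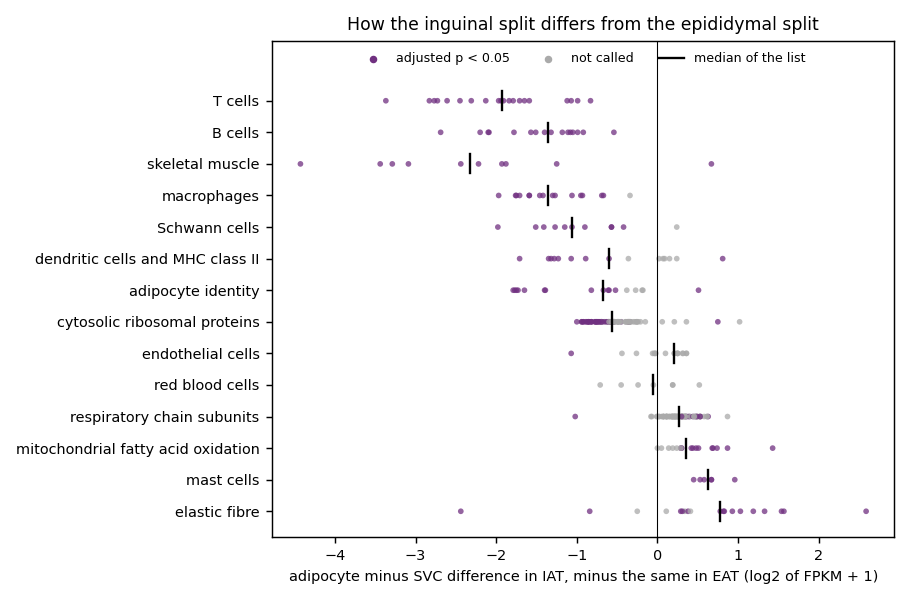
Difference between the inguinal and the epididymal fraction difference, in log2(FPKM + 1), for the members of 14 gene lists, with called members in purple and the median as a black bar. T cell, B cell and macrophage genes lie left of 0, where SVCs exceed adipocytes of the same depot by more in IAT, and mast cell genes lie right of 0. The SVC level itself can be higher in EAT, as for Csf1r.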

How the data were processed

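RNA-seq libraries had been aligned and quantified by the authors. TopHat and Cufflinks, without versions, and the build GRCm38 (mm10) are given in the submitters' processing notes, and the annotation was not given in the sources used here. The deposited tables give FPKM per gene with confidence bounds and no read counts, so count tests were not run, and precision was judged from the bounds. Of 24890 features, 273 symbols stood at several loci and were kept apart, and 6 features whose estimate failed in at least 1 of the 6 libraries were left out. Values were transformed to log2(FPKM + 1), with a filter of 1 FPKM in at least 3 libraries, and fitted with limma 3.58.1 (lmFit and eBayes with trend) in R 4.3.3. Tests were two-sided, with Benjamini-Hochberg adjustment over all features tested. The 6 inguinal libraries were fitted alone, and all 12 for the comparison of depots.

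The members, 47 gene lists, 42 related pairs and 85 ligand and receptor pairs were chosen with earlier results of these data known. Genes named were the 10 largest differences in each direction, the highest called members of each list, genes of the pairs, reference genes, the 10 most equal abundant genes and, for the depots, the 10 smallest p-values in each direction. Further genes, such as Adra2a, Lama2, Cd34, Myh11, Cd79a and Cd3e, were picked as known members of their lists after their values were seen. A few genes are not reported here. Promoters are RefSeq sequences. On simulated data of 12496 genes, with 50 changed at each size, the inguinal fit recovered 82% of changes of 0.5 and 96% of changes of 1 (log2), with 5 false calls. A far larger share of features was called in the data themselves, so these rates need not hold there. Alternatives changed the pseudocount, filter, scaling, trend, block, fold threshold and libraries. Plots were made with Python 3.11.15 and matplotlib 3.10.9.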

Additional observations from a re-analysis of the deposited data

Results flagged for a closer look

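The fraction difference in IAT was set against that in EAT with a limma interaction over 13175 features, and the features with the smallest p in each direction are given here, as the inguinal difference minus the epididymal one in log2(FPKM + 1). Major urinary protein genes, a family of near-identical copies, were among them, with a higher value in IAT: Mup10 (4.73), Mup19 (3.48) and Mup2 at 2 loci (4.25 and 3.82). Mup10 was at 37 ± 2.85 FPKM in IAT adipocytes, 0.286 ± 0.0627 in IAT SVCs and 0.111 ± 0.0643 in EAT adipocytes, and it was listed at 0 in the EAT SVCs. Reads of this family may be divided between copies, so single values are uncertain. The potassium channel gene Kcnk2 (3.31) was higher in adipocytes in IAT (6.48 ± 0.23 in adipocytes against 0.284 ± 0.0723 FPKM in SVCs), while in EAT it stood at 1.48 ± 0.188 in EAT adipocytes against 3.22 ± 0.123 FPKM in EAT SVCs.

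Other features with a higher value in IAT were genes of the epididymal stroma, near 0 in both inguinal fractions. They were the mesothelial genes Msln (3.95), Upk1b (3.67) and Wt1 (3.83), the collagen gene Col6a5 (4.68) and Hpca (2.56). Msln was at 93.7 ± 2.64 FPKM in EAT SVCs and 0.101 ± 0.0415 in IAT SVCs.

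Among features with a lower value in IAT, the complement gene C6 (-4.12) was at 3.47 ± 0.00983 in adipocytes against 4.48 ± 0.39 FPKM in SVCs in IAT and 26.8 ± 0.658 in EAT adipocytes against 0.953 ± 0.111 FPKM in EAT SVCs. The muscle genes Ckm (-3.29) and Pvalb (-3.44) were measured in inguinal SVCs, with Ckm at 0.259 ± 0.00126 in adipocytes against 12.1 ± 0.648 FPKM in SVCs in IAT. The others were Dmrt2 (-2.56), Oxtr, the oxytocin receptor (-2.83), Myoc (-2.45), Gnb4 (-2.4), Hspb7 (-2.84), Col13a1 (-2.17) and Mmp27 (-2.23).

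Whole lists also differed between depots by this test. Members with a lower value in IAT numbered 20 of 20 tested for T cells, 16 of 16 for B cells and 15 of 16 for macrophages. They numbered 10 of 11 for Schwann cells and 9 of 10 for skeletal muscle, and 6 of 6 mast cell genes had a higher value. Over all features 17.8% had a lower value and 14.7% a higher one, shares that were not selected in this way. The part of neighbouring lymph node, nerve or muscle in these values was not tested.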

How the results depend on the processing

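The inguinal comparison was rerun under 15 alternatives and the comparison of depots under 20. Of 209 named genes 195 had the same direction and side of the threshold throughout, and 35 of 47 list counts stayed within 1.5 times. The 209 did not hold all of the most equal abundant genes, every one of which gained a call under median-of-ratios scaling. With FPKM rescaled to TPM the inguinal calls were 4375 higher and 6355 lower, and with no filter 4504 and 9443. A 2-fold threshold left 5294 calls (1741 higher, 3553 lower) and, between depots, 931 (479 higher, 452 lower). A filter of 5 FPKM gave 1239 higher values between depots. By construction this filter also tested fewer list members: brown and beige fat kept 4 calls, mesenchymal transcription factors 10, lymphatic endothelium 2, Schwann cells 5, keratinocytes 0, mesothelium 0, regulatory T cells and ILC2 2, NK and cytotoxic cells 4, plasma and germinal centre cells 3, lymph node stroma 3 and proliferation 3. With no filter more were tested, giving lymphatic endothelium 7, keratinocytes 4, mesothelium 5 and neutrophils 7. Among these 209 genes, median-of-ratios scaling reversed the sign for Fos (0.05), Pfkp (0.24), Tnfrsf1a (0.43), Npr2 (0.03) and C6 (0.08). With no call on either scale, the signs of Ccl2 (0.24) and Acta1 (0.41) were reversed too, since this scaling shifts all differences upward.

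Replicate numbers were not taken as pairs, since the deviations of same-numbered libraries from their group means correlated at 0.064, 0.113 and 0.072. In these deviations, though not in the values themselves, each library correlated best with its own number, a hint from the data and not from the design. The replicate block gave 11130 calls (4108 higher, 7022 lower) and 4114 between depots. Leaving out 1 library gave 10653 to 10819 inguinal calls and 3513 to 5300 between depots, the last without EAT adipocyte replicate 1. With 3 libraries a group the precision rests on few samples, and low features carry more counting error.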

Other observations

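Several abundant adipocyte transcripts belonged to none of the lists. Ifi27l2a, an interferon-inducible gene, stood at 6496, 6296 and 5724 FPKM in the adipocyte libraries and 336, 281 and 299 FPKM in the SVC libraries, and Dbi, an acyl-CoA binding protein, at 4787, 4656 and 4149.8 FPKM in the adipocyte libraries and 222, 200 and 202 FPKM in the SVC libraries. Both were higher in adipocytes with no overlap (4.34 and 4.44 on the log2 scale). Apoe, an apolipoprotein known from macrophages and liver, was also higher in adipocytes, at 4055 ± 154 in adipocytes against 1647 ± 133 FPKM in SVCs. Gsn, the actin-severing protein gelsolin, was among the most abundant transcripts of both fractions, at 5169 ± 214 in adipocytes against 8039 ± 345 FPKM in SVCs (difference -0.64 ± 0.13 in log2, adjusted p = 8.2e-04), with no call under median-of-ratios scaling.

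Some further receptors were higher in adipocytes. Ntrk2, the receptor of the neurotrophin BDNF, was at 60.4 ± 3.08 in adipocytes against 15.1 ± 0.428 FPKM in SVCs (difference 1.93 ± 0.06 in log2, adjusted p = 5.0e-10), while Bdnf itself was near 0. Met, the receptor of hepatocyte growth factor, was at 6.66 ± 0.578 in adipocytes against 0.95 ± 0.109 FPKM in SVCs (difference 1.97 ± 0.082 in log2, adjusted p = 4.1e-09), and its ligand Hgf was higher in adipocytes too, at a low level (1.65 against 0.589 FPKM). Lgr4, a receptor of R-spondins, was at 7.21 ± 0.362 in adipocytes against 2.79 ± 0.111 FPKM in SVCs, and its ligand Rspo1 was higher in SVCs (0.165 against 2.18 FPKM). Complement was divided, with Cfd higher in adipocytes, as given above, and C3 higher in SVCs, at 166 ± 18.3 in adipocytes against 625 ± 47.3 FPKM in SVCs (difference -1.9 ± 0.095 in log2, adjusted p = 1.5e-08). All of these genes were picked after their values were seen.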
